A study of Rattus norvegicus with 32 samples.

Results

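Cd180 and its relatives among the Toll-like receptors are the pattern-recognition receptors by which myeloid cells sense microbial lipids and nucleic acids. The set described here holds 10 listed genes, namely the receptors Cd180, Tlr2, Tlr3, Tlr4 and Tlr7, the partner proteins Ly86, Ly96 and Cd14, the adaptor Myd88 and the inhibitor Irak3. They were found by symbol in a table of 22587 genes, which held 9 of the 10. Ly96 was not analysed here. The members were chosen by their ozone and air values in sham-operated rats, in which Cd180 was low after ozone, so member values in every comparison that includes sham ozone libraries are a description with no p-value, and calls counted there are not read as evidence. Comparisons of air libraries are tested but share the sham air libraries with that choice, while ozone against air in ADREX rats compares no sham libraries. The spread behind all SEs and p-values was estimated over all groups of a fit, sham groups included.

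Expression was measured by mRNA sequencing in hypothalamus and brainstem of Wistar Kyoto rats aged 13 weeks. Adrenal glands had been removed on both sides (ADREX) or a sham operation had been done, and the rats then breathed ozone at 0.8 ppm or filtered air for 4 hours, with tissue taken straight afterwards. In each tissue the groups were ADREX ozone, ADREX air, sham ozone and sham air, with 4 libraries each, 32 in all. No agent other than ozone and no engineered allele is given in the labels, which do not say whether the ADREX rats received hormone replacement.

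In most immune cells a Toll-like receptor that binds its ligand recruits the adaptor Myd88, which assembles Irak kinases and leads to activation of NF-kB and to cytokine genes, whereas Tlr3 signals through another adaptor. Cd180, also called RP105, has the extracellular repeats of a Toll-like receptor but lacks the signalling domain. It pairs with Ly86 (MD-1) as Tlr4 pairs with Ly96 (MD-2), and it is known as a brake on Tlr4 in macrophages and dendritic cells and as an activating receptor in B cells. In the brain these receptors are mainly carried by microglia, the resident macrophages, and glucocorticoids from the adrenal cortex are known to act on Toll-like receptor signalling.

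The deposited values are read counts normalized by library, called normalized counts below, and they are not corrected for gene length, so levels are not compared between genes. Libraries held 6.44 to 12.4 M reads. Behind the values of the set stood 2 to 220 reads per gene and library, with Ly86 (2 to 32 reads) and Cd14 (8 to 62) the thinnest. The tissue labels were borne out by their markers. The hypothalamic peptide genes Pmch and Hcrt averaged 2612 and 698 normalized counts in hypothalamus and 19.1 and 26.1 in brainstem, and Tph2, the enzyme of serotonin synthesis in the raphe, averaged 12.5 in hypothalamus and 559 in brainstem. Transcripts made by the liver exceeded 2000 RPM (reads per M reads) in 4 libraries, namely hypothalamus sham air 2, hypothalamus sham ozone 18, hypothalamus ADREX air 68 and brainstem sham ozone 18, and a second value with them left out is given where it bears on a result. Nothing in the sources used here says which libraries came from separate animals, so every p-value measures the spread between libraries, which may be technical.

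Cd180 was low in the sham ozone libraries of both tissues. In hypothalamus it stood at 19.9, 34.4, 16.5 and 23.4 normalized counts in the sham ozone libraries, against 55.4, 68.04, 64.9 and 57.1 in sham air. In brainstem it stood at 25.1, 32.6, 16.4 and 22.4 in sham ozone, against 74.3, 98.9, 89.2 and 79.3 in sham air. No sham ozone library reached the lowest sham air library of its tissue. The ADREX groups held no such gap. In hypothalamus the values were 56.3, 50.3, 47.5 and 59.8 in ADREX ozone and 41.2, 61.2, 52.7 and 61.9 in ADREX air. In brainstem they were 40.5, 104, 79.8 and 109 in ADREX ozone and 73.9, 84.5, 63.6 and 69.3 in ADREX air. The 8 sham ozone libraries of both tissues lay between 16.4 and 34.4, below the 24 other libraries, which lay between 40.5 and 109.

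**Figure D1:**
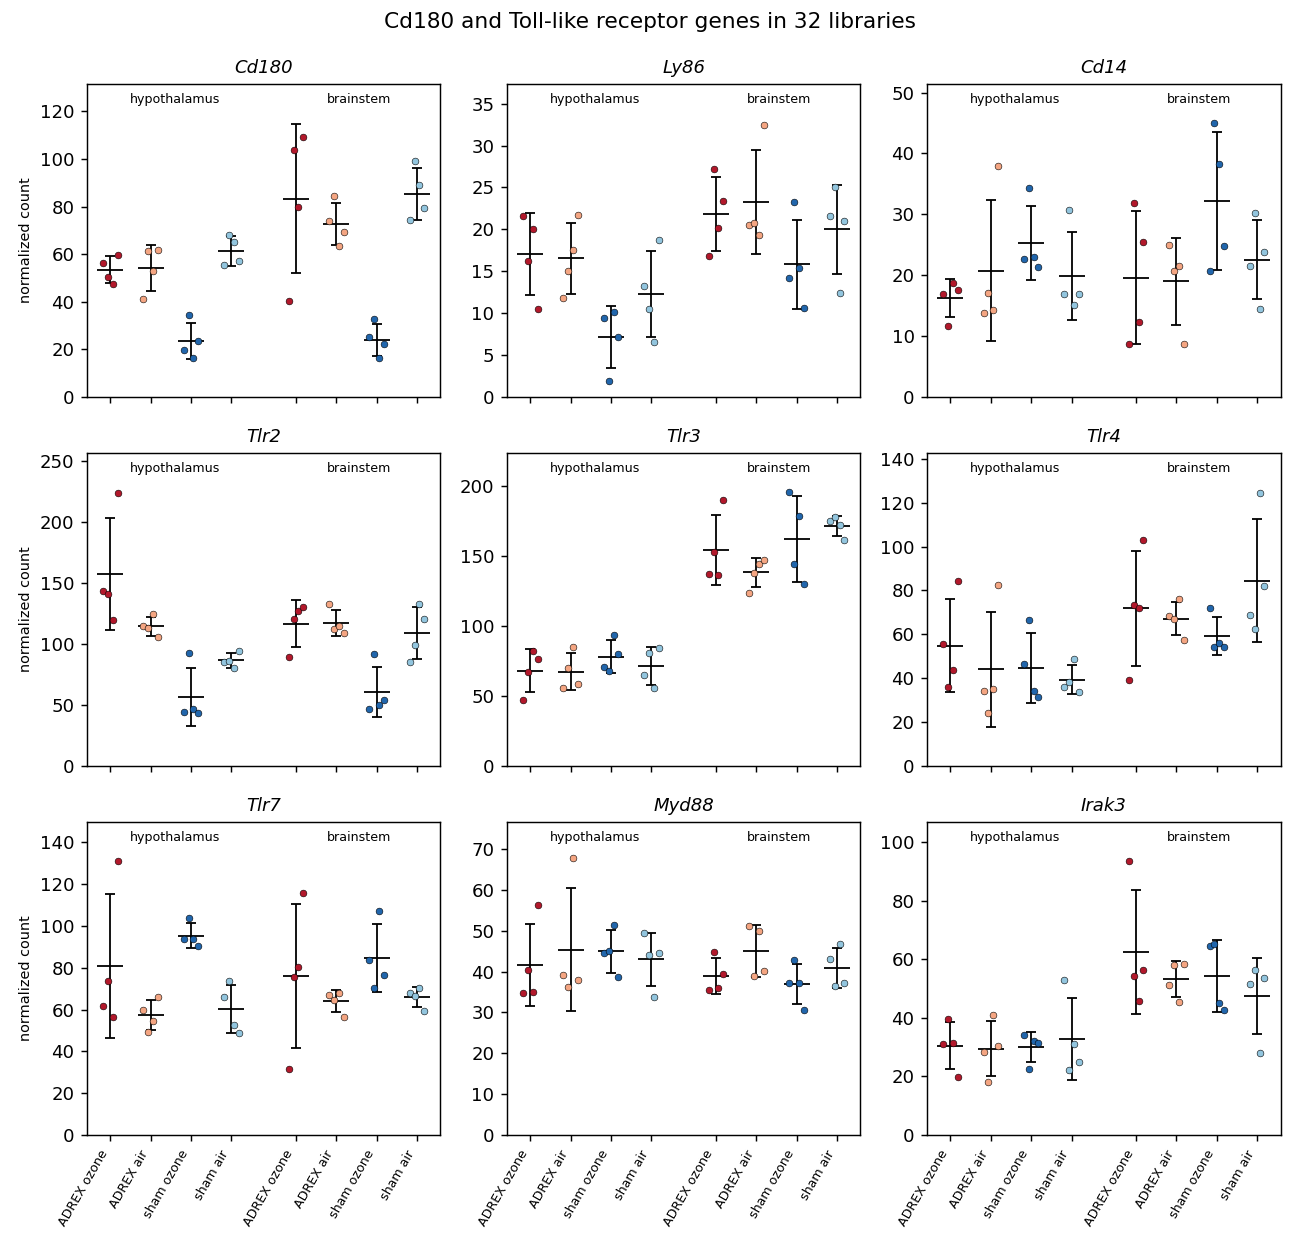
Normalized counts (vertical axes, each from 0) of the 9 measured genes in each library (points, 4 per group), with the group mean and SD (bars), for hypothalamus (left) and brainstem (right) of ADREX ozone, ADREX air, sham ozone and sham air rats. In Cd180 the sham ozone points of both tissues lie at 34.4 or lower and all other points at 40.5 or higher.

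Ordered by mean, low to high, Cd180 was at 23.5 ± 7.73 normalized counts in hypothalamus sham ozone, 24.1 ± 6.72 in brainstem sham ozone, 53.5 ± 5.59 in hypothalamus ADREX ozone, 54.3 ± 9.65 in hypothalamus ADREX air, 61.3 ± 6.10 in hypothalamus sham air, 72.8 ± 8.83 in brainstem ADREX air, 83.4 ± 31.4 in brainstem ADREX ozone and 85.5 ± 10.9 in brainstem sham air (SD, n = 4 each). Neighbours in this order differed by more than the larger of their SDs at 2 places, between brainstem sham ozone and hypothalamus ADREX ozone and between hypothalamus sham air and brainstem ADREX air. On the log2(normalized count + 1) scale used for all changes below, which understates the change of genes with few reads, ozone over air in sham rats gave -1.39 ± 0.20 in hypothalamus and -1.81 ± 0.26 in brainstem (± SE). With the 4 liver-rich libraries left out the changes were -1.53 in hypothalamus and -1.97 in brainstem.

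Tlr2, the receptor for bacterial lipoproteins, also had a lower mean in sham ozone in both tissues. In hypothalamus it had 44.5, 92.3, 46.9 and 43.7 normalized counts in sham ozone, against 85.4, 86.3, 80.0 and 94.5 in sham air. In brainstem it had 46.9, 91.4, 50.4 and 54.3 in sham ozone, against 85.1, 98.9, 133 and 120 in sham air. In both tissues 3 of the 4 sham ozone libraries lay below all sham air libraries, while the one numbered 18, which is rich in liver transcripts in both tissues, lay among them. The log2 change was -0.67 ± 0.21 in hypothalamus and -0.87 ± 0.20 in brainstem, and with the 4 liver-rich libraries left out it was -0.93 in hypothalamus and -1.08 in brainstem.

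Tlr7, the endosomal receptor for single-stranded RNA, went the other way in hypothalamus. It had 93.7, 104, 93.7 and 90.4 normalized counts in sham ozone, against 66.2, 73.8, 52.7 and 49.0 in sham air, and the groups did not overlap (log2 change 0.67 ± 0.21). In brainstem it had 83.98, 70.4, 107 and 76.7 in sham ozone, against 67.9, 66.7, 70.5 and 59.3 in sham air, where the lowest sham ozone library lay just under the highest sham air one (0.34 ± 0.27).

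Across the 9 measured members, limma's calls at adjusted p under 0.05 in sham ozone against sham air were Cd180 in hypothalamus, where 1.59% of all 14483 genes were called, and Cd180 and Tlr2 in brainstem, where 0.979% of all 14408 genes were called. The groups did not overlap for Cd180 and Tlr7 in hypothalamus, against 9.62% of all genes, and for Cd180 in brainstem, against 7.18%. These counts describe the comparison through which the set was put forward and carry no further weight. The Tlr2 call in brainstem was lost in 13 of 16 fits that each left out 1 library. The median log2 change of the 9 members was 0.07 in hypothalamus and -0.14 in brainstem, beside 0.00 for all genes in both tissues.

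The partner proteins and downstream members showed no such gap in sham rats. Ly86, which carries Cd180 to the cell surface, had 9.46, 1.96, 10.1 and 7.11 normalized counts in hypothalamus sham ozone, against 13.2, 10.5, 6.58 and 18.7 in sham air, from 2 to 11 reads in each sham ozone library (log2 change -0.78 ± 0.42). The lowest value is that of the liver-rich sham ozone 18, without which the change was -0.35, and with both liver-rich libraries left out it was -0.39. Its brainstem groups overlapped as well, at 10.6 to 23.2 in sham ozone and 12.4 to 24.997 in sham air (-0.33 ± 0.28, and -0.52 with brainstem sham ozone 18 left out). Cd14, which hands lipopolysaccharide to Tlr4, was at 21.3 to 34.4 in hypothalamus sham ozone and 15.1 to 30.7 in sham air, and at 20.7 to 44.98 in brainstem sham ozone and 14.5 to 30.2 in sham air, with log2 changes of 0.37 ± 0.32 and 0.47 ± 0.41. With the liver-rich libraries left out Cd14 changed by 0.43 in hypothalamus and 0.30 in brainstem. Ly86 and Cd14 thus had overlapping groups in both tissues.

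Tlr4, the receptor for lipopolysaccharide, changed by 0.13 ± 0.34 in hypothalamus (-0.09 with the liver-rich libraries left out) and by -0.47 ± 0.25 in brainstem of sham rats (-0.26 without sham air 3). Tlr3, the receptor for double-stranded RNA, changed by 0.14 ± 0.19 and -0.10 ± 0.14 in the same order of tissues. The adaptor Myd88 changed by 0.07 ± 0.21 in hypothalamus and -0.14 ± 0.16 in brainstem, with levels between 30.7 and 51.5 in the 16 sham libraries of both tissues. Irak3, a kinase-dead relative that holds back Myd88 signalling, changed by -0.05 ± 0.29 in hypothalamus and 0.21 ± 0.25 in brainstem (-0.01 without sham air 3). For these 4 genes the sham ozone and sham air libraries overlapped in both tissues.

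Cd180, Tlr2 and Tlr7 were picked here by the same sham ozone and air values that put the set forward, which is no evidence of a link to ozone. Their promoters are shown beside the letters that factors of this pathway are known to bind. They are the 250 bases before the annotated start in RefSeq, build GRCr8, a build other than the rn6 of the deposited counts, and 8 of the 10 listed genes had an entry. Capitals mark GGGA followed by any 4 bases and CC, a common form of the NF-kB site, in Tlr2, and GAGGAA, the core bound by the myeloid factor PU.1, in Tlr7.
Cd180 (chr2:35589680-35589929, plus strand): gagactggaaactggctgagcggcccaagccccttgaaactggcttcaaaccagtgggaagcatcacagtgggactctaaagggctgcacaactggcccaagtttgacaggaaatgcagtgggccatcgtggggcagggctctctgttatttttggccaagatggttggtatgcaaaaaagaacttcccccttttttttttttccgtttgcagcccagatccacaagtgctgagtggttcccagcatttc
Tlr2 (chr2:171504558-171504807, minus strand): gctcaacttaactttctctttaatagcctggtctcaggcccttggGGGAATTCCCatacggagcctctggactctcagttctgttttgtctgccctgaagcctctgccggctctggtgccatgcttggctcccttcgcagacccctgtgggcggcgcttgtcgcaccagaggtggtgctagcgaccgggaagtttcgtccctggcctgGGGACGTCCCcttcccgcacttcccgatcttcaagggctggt
Tlr7 (chrX:30644176-30644425, plus strand): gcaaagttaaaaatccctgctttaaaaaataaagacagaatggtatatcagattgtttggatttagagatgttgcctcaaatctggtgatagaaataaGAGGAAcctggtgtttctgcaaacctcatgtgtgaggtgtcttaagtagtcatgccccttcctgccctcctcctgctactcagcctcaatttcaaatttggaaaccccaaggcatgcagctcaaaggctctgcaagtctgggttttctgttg

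On both strands, 3 strings of letters were searched. They could overlap each other. ACANNNTGT, the core of the repeat bound by the glucocorticoid receptor, was in 5.81% of 33469 rat promoters of the same length and in none of the 8 matched members. The NF-kB string was in 16.4% of promoters. Tlr2 held it at 2 places, 205 and 42 bases before the start, each matching on both strands, and Irak3 held it at 1 place. GAGGAA was in 23.3% of promoters. It stood at 2 places in Cd14 and Tlr4 and at 1 place in Tlr3 and Tlr7. The Cd180 window above held none of the 3 strings, which says only that these letters are not in this window.

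The comparison of ozone with air in ADREX rats set against each other libraries that played no part in putting the set forward. Its SEs, intervals and p-values rest on a spread estimated with the sham libraries too. In hypothalamus and in brainstem 0 of the 9 members passed limma's adjusted p of 0.05, and 0 had an unadjusted p under 0.05. The share of all genes called was 0% in both tissues, with 1163 genes in hypothalamus and 851 in brainstem at an unadjusted p under 0.05, and edgeR and DESeq2 also called 0 members. The ozone and air libraries overlapped for all 9 members in both tissues, while they did not for 3.64% of all genes in hypothalamus and 2.19% in brainstem. Cd180 changed by -0.01 ± 0.20 in hypothalamus (95% interval -0.43 to 0.41, limma adjusted p = 0.990) and by 0.10 ± 0.26 in brainstem (-0.45 to 0.66, limma adjusted p = 0.952). The brainstem library ADREX ozone 81 was low for Cd180 at 40.5, and without it the change was 0.41.

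**Figure D2:**
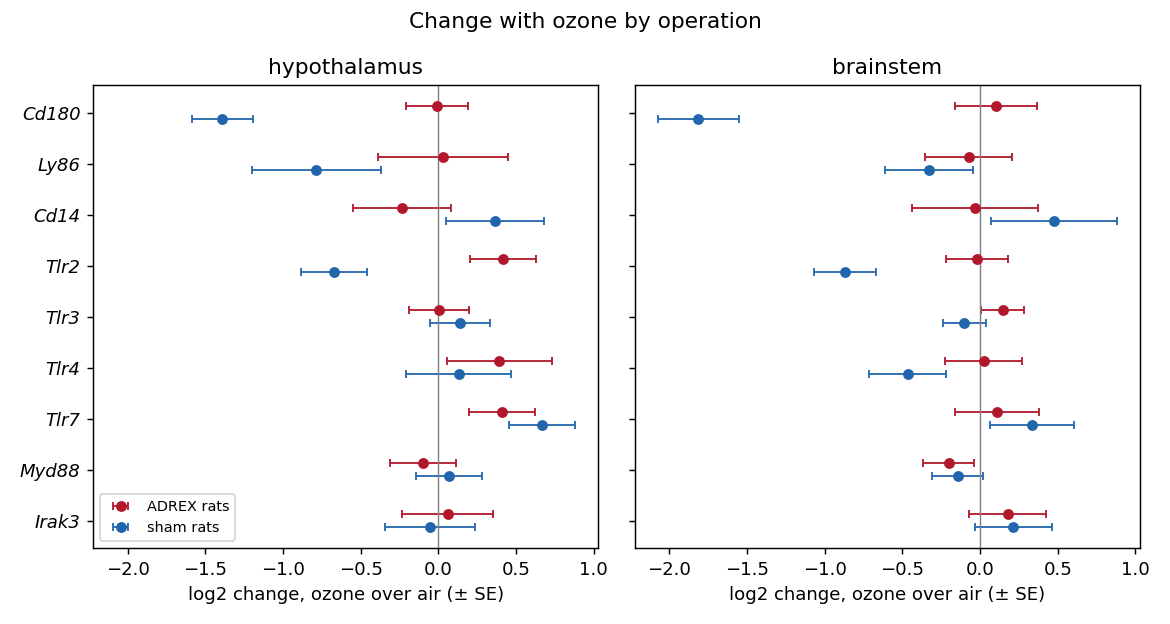
Change with ozone in hypothalamus (left) and brainstem (right), as log2(normalized count + 1) in ozone minus air with its SE (horizontal axis), for ADREX rats (red) and sham rats (blue). Cd180 lies near 0 in ADREX rats, and at -1.39 in hypothalamus and -1.81 in brainstem of sham rats.

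Tlr2, Tlr7 and Tlr4 had positive estimates of similar size after ozone in ADREX hypothalamus. Tlr2 stood at 144, 141, 120.0 and 224 normalized counts in ADREX ozone, against 115, 113, 125 and 105 in ADREX air. Tlr7 stood at 62.0, 73.7, 56.3 and 131 in ADREX ozone, against 59.9, 49.2, 54.4 and 66.3 in ADREX air. The ozone and air libraries overlapped for both genes, and the library ADREX ozone 84 was the highest of the 8 each time. The log2 changes were 0.41 ± 0.21 for Tlr2 and 0.41 ± 0.21 for Tlr7 (limma adjusted p = 0.586 for each), and 0.23 and 0.15 without ADREX ozone 84. In brainstem the 2 genes changed by -0.02 ± 0.20 and 0.11 ± 0.27.

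The remaining members of the set changed by -0.23 (Cd14, 0.09 without ADREX air 68) to 0.39 (Tlr4) in hypothalamus and by -0.20 (Myd88) to 0.18 (Irak3) in brainstem of ADREX rats after ozone. Their limma adjusted p ranged from 0.681 to 0.994 in hypothalamus and from 0.833 to 0.992 in brainstem. Tlr4 in hypothalamus had 1 high library on each side, with 55.4, 35.9, 43.8 and 84.4 normalized counts in ADREX ozone and 34.3, 24.1, 35.2 and 82.6 in ADREX air. The highest of the ADREX air values is that of library 68, which is rich in liver transcripts, and without it the change was 0.74, while it was 0.16 without ADREX ozone 84 or without ADREX air 66.

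Rats that breathed air show what the operation did on its own. No member passed limma's threshold in hypothalamus, where 0.0138% of all genes were called, or in brainstem, where 0% were called, and edgeR and DESeq2 called 0 members in either. Cd180 changed by -0.19 ± 0.20 in hypothalamus (limma adjusted p = 0.953) and by -0.23 ± 0.26 in brainstem (0.9998). The groups did not overlap for 1 member in each tissue, against 5.11% of all genes in hypothalamus and 3.3% in brainstem. In hypothalamus this was Tlr2, at the 105 to 125 of ADREX air given above against 80.0 to 94.5 in sham air (0.40 ± 0.21, limma adjusted p = 0.915). Markers of neutrophils and monocytes separated the same groups, with sums over 10 genes of 135 to 200.1 in ADREX air against 77.01 to 126 in sham air. Most of these counts came from Csf3r, Plac8 and Lcn2, the 3 markers that could be tested, of which 0 were called. S100a8, Ccr2, Mpo, Cxcr2 and Mmp8 averaged 0.06 to 1.22 in hypothalamus. The part of these cells in the Tlr2 values was not tested. In brainstem it was Tlr3, at 124, 138, 144 and 147 in ADREX air, against 176, 178, 172 and 162 in sham air (-0.31 ± 0.14, limma adjusted p = 0.9998).

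In rats that breathed ozone, ADREX was set against sham with the same sham ozone libraries, so these values are a description too. Cd180 was higher by 1.20 ± 0.20 in hypothalamus and 1.69 ± 0.26 in brainstem, and Tlr2 by 1.49 ± 0.21 and 0.97 ± 0.20. With the liver-rich libraries left out Cd180 gave 1.39 and 1.84, and Tlr2 1.74 and 1.18. Limma called both genes in both tissues, where 2.24% of all genes were called in hypothalamus and 2.44% in brainstem. The brainstem call of Tlr2 was lost without sham ozone 17 or 19. In hypothalamus the groups did not overlap for 4 members, against 6.64% of all genes. These were Cd180, Tlr2, Ly86, at 10.6 to 21.6 in ADREX ozone and 1.96 to 10.1 in sham ozone (1.27 ± 0.42, and 0.84 with the liver-rich libraries left out), and Cd14, at 11.7 to 18.8 in ADREX ozone and 21.3 to 34.4 in sham ozone. In brainstem Cd180 was the 1 member whose groups did not overlap, against 7.29% of all genes.

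The difference between operations in the ozone change was estimated as the change in ADREX rats minus that in sham rats. For Cd180 it was 1.38 ± 0.28 in hypothalamus and 1.92 ± 0.37 in brainstem, and for Tlr2 1.09 ± 0.30 and 0.85 ± 0.28. With the liver-rich libraries left out these were 1.59 and 2.07 for Cd180 and 1.30 and 1.06 for Tlr2. Cd180 in brainstem passed limma's threshold and no member did in hypothalamus, beside 0.201% of all genes in brainstem and 0.138% in hypothalamus. The brainstem call was lost in 14 of 16 fits that each left out 1 library, and held without sham ozone 18 or without ADREX ozone 81. In hypothalamus both Cd180 and Tlr2 were called without sham ozone 18.

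Microglia carry most of these receptors, so the members were also read beside 20 microglia markers. The summed marker counts were 3535 to 4072 in hypothalamus ADREX ozone and 3521 to 4082 in ADREX air, and 3455 to 3660 in sham ozone against 3606 to 3914 in sham air. In brainstem they were 4070 to 4491 in ADREX ozone and 4020 to 4505 in ADREX air, and 3598 to 4183 in sham ozone against 4156 to 4373 in sham air. In sham rats after ozone 1 of the 20 markers, the transcription factor Sall1, was called lower in each tissue. Of all genes 1.59% were called there in hypothalamus and 0.979% in brainstem. In each tissue 15 of the 20 markers had a negative change, and their median change was -0.19 in hypothalamus and -0.21 in brainstem. The marker sums of sham ozone and sham air overlapped in both tissues only through sham ozone 18, which is rich in liver transcripts in both. The other sham ozone libraries lay below all sham air libraries of their tissue. In bulk tissue fewer cells of a type and less RNA per cell cannot be told apart.

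Per 1000 summed microglia marker counts, Cd180 was at 6.65 ± 2.002 in hypothalamus sham ozone against 16.4 ± 1.20 in sham air, and at 6.30 ± 1.43 in brainstem sham ozone against 19.8 ± 2.31 in sham air (SD, n = 4 each). In ADREX rats it was at 14.4 ± 1.33 in ozone against 14.5 ± 2.20 in air in hypothalamus, and at 19.4 ± 6.78 against 16.96 ± 2.02 in brainstem. The highest sham ozone ratio was 9.39 in hypothalamus and 7.81 in brainstem, below the lowest sham air ratios of 15.3 and 17.9. The largest terms of the marker sum were Ctss, Csf1r and Sall1, which averaged 747, 658 and 429 in hypothalamus and 811, 735 and 695 in brainstem. Sall1 was itself called lower in sham ozone, so the ratio is not a level per cell. Tlr7 on the same scale was at 27.1 ± 0.996 in hypothalamus sham ozone against 16.2 ± 3.22 in sham air. In brainstem Tlr7 was at 22.4 ± 4.90 against 15.4 ± 1.27, and its groups did not overlap in either tissue. Tlr2 was at 16.01 ± 6.14 against 23.2 ± 2.20 in hypothalamus. In brainstem Tlr2 was at 15.8 ± 4.18 against 25.3 ± 4.50, and its groups overlapped in both tissues.

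**Figure D3:**
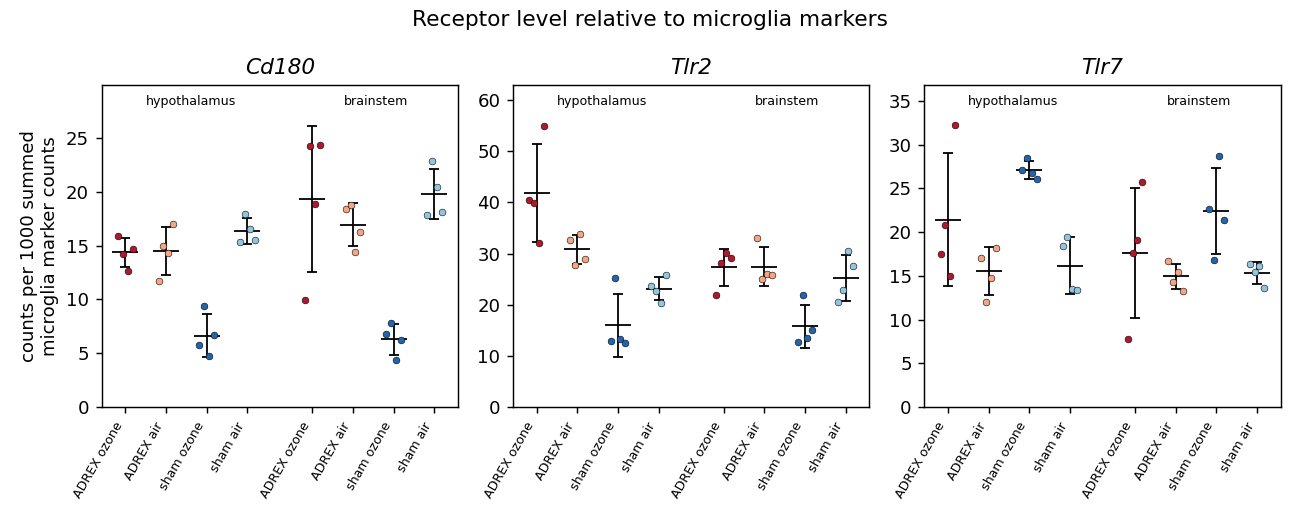
Cd180, Tlr2 and Tlr7 per 1000 summed counts of 20 microglia markers (vertical axes, from 0) in each library (points), with group mean and SD (bars), for the 8 groups. Cd180 is lowest in sham ozone of both tissues, while Tlr7 in hypothalamus is at 27.1 in sham ozone and 16.2 in sham air.

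Markers of other cell types that carry Cd180 or Tlr2 were read in the same libraries. B cells, on which Cd180 was first described, left little trace, as 8 B cell markers summed to between 7.22 and 35.5 normalized counts per library. Perivascular macrophages, which carry Cd14 and Toll-like receptors, were read from 8 markers, whose sums were 172 to 331 in hypothalamus sham ozone against 148 to 217 in sham air, and 190.1 to 287 in brainstem sham ozone against 119.6 to 279 in sham air, with 0 markers called. Neutrophils and monocytes carry Tlr2 and Cd14, and their 10 markers summed to 77.2 to 123 in hypothalamus sham ozone against 77.01 to 126 in sham air, and to 106 to 223 in brainstem sham ozone against 116 to 234 in sham air. In ADREX rats the sums were 118 to 203 in ozone and 135 to 200.1 in air in hypothalamus, and 159 to 235 in ozone and 168 to 246 in air in brainstem. Of these markers 3 had a mean of 10 or more, and Ccr2, which defines inflammatory monocytes, was at 0 in 31 of the 32 libraries. In ADREX against sham rats in ozone Csf3r, the receptor for granulocyte colony-stimulating factor, was called higher by 0.95 ± 0.21 in hypothalamus and 1.05 ± 0.25 in brainstem. In that comparison 2.24% of all genes were called in hypothalamus and 2.44% in brainstem. Csf3r was the 1 call among the 3 tested neutrophil and monocyte markers. Changes were positive for 2 of them in hypothalamus and for 3 in brainstem. Other lists held calls too, as 6 of the 11 endothelial markers were called higher in each tissue. Of the 20 microglia markers 1 was called higher and 1 lower in hypothalamus, and 3 higher and 1 lower in brainstem. Among perivascular macrophage markers 1 was called lower in brainstem. Read as a description, 3 of the 11 measured endothelial markers were called lower in sham ozone than in sham air in each tissue. Of all genes 1.59% were called there in hypothalamus and 0.979% in brainstem. The median change of the endothelial markers was -0.37 in hypothalamus and -0.46 in brainstem. Their sums were 1987 to 2142 in hypothalamus sham ozone against 2825 to 3135 in sham air, and 2585 to 3271 in brainstem sham ozone against 3582 to 4032 in sham air. In ADREX hypothalamus they were 2690 to 3038 in ozone and 2864 to 3598 in air, and in ADREX brainstem 3911 to 4189 in ozone and 3782 to 4615 in air. The part of these cell types in the Cd180 and Tlr2 values was not tested.

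Genes with a pattern like that of Cd180 were ranked by the root-mean-square difference of their 8 group means from those of Cd180, on the log2 scale and centred within each tissue, among 10392 genes with a mean of 50 or more. The nearest 8 were the Ras activator Rasgrp3 (0.18), the interferon-inducible GTPase Gbp2 (0.20), the secreted protease Adamts1 (0.27), the endothelial growth factor receptor Kdr (0.27), the cyclin Ccnd1 (0.28), the docking protein Gab1 (0.29), the thyroid hormone transporter Slco1c1 (0.29) and Nipal4 (0.32). Kdr and Slco1c1 are also on the endothelial list, and none of the 8 is on the microglia list. Some markers of both lists, such as Trem2 for microglia and Erg for endothelium, averaged under 50 and were not ranked. The share of either list among the 10392 genes was not computed, and the cell source of Cd180 was not tested. The pattern matched holds the sham ozone values that put Cd180 forward. Among the members with a mean of 50 or more, Tlr2 stood at rank 20 (0.36), Tlr4 at 1402, Tlr3 at 8072 and Tlr7 at 10138. Ly86, the partner of Cd180, and Cd14, Myd88 and Irak3 had lower means and were not ranked. The measure runs over 8 groups that share their libraries and carries no test.

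**Figure D4:**
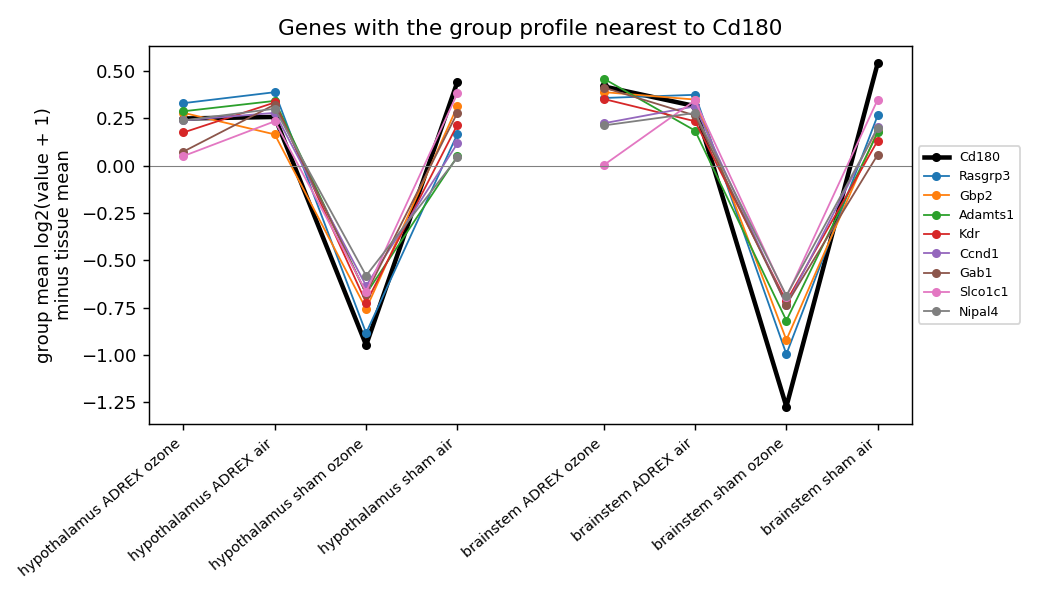
Group means of log2(normalized count + 1) minus the tissue mean (vertical axis) for Cd180 (black) and the 8 genes nearest to it (colours), in the 8 groups. All 9 lines are lowest in sham ozone in both tissues, and the line of Cd180 is the lowest there.

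In rats that breathed air, 4 of the 9 members were called between hypothalamus and brainstem, all lower in hypothalamus, where 42% of all 14533 genes were called in either direction and 20.8% were lower. The share of members called in either direction is near that of all genes and is not a result about the set. The members' median difference was -0.45, beside -0.01 for all genes. Tlr3 differed the most, by -1.16 ± 0.12 (limma adjusted p = 2.66e-09). It had 55.5 to 85.4 normalized counts in the 8 hypothalamus air libraries and 124 to 178 in the 8 of brainstem, with no overlap, and its call held in all 32 fits that each left out 1 library and in every other alternative run.

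Tlr4 differed by -0.90 ± 0.22 (limma adjusted p = 0.00120), at 24.1 to 82.6 normalized counts in hypothalamus air and 57.4 to 124 in brainstem air. Irak3 differed by -0.72 ± 0.19 (limma adjusted p = 0.00350), at 18.1 to 52.9 and 28.0 to 58.4. Cd180 differed by -0.45 ± 0.17 (limma adjusted p = 0.0317), with every hypothalamus air library at or below 68.04 and brainstem air libraries from 63.6 upward. The Cd180 call was lost without any 1 of 6 libraries, namely hypothalamus sham air 1 or 4, hypothalamus ADREX air 65, brainstem sham air 2 or 3, and brainstem ADREX air 66 (limma adjusted p = 0.0506 to 0.0767). In sham air alone Irak3 and Cd180 missed the threshold, and in ADREX air alone, whose libraries played no part in choosing the members, Tlr4 and Cd180 did while Tlr3 and Irak3 passed. The spread for both came from the fit of all 32 libraries.

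**Figure D5:**
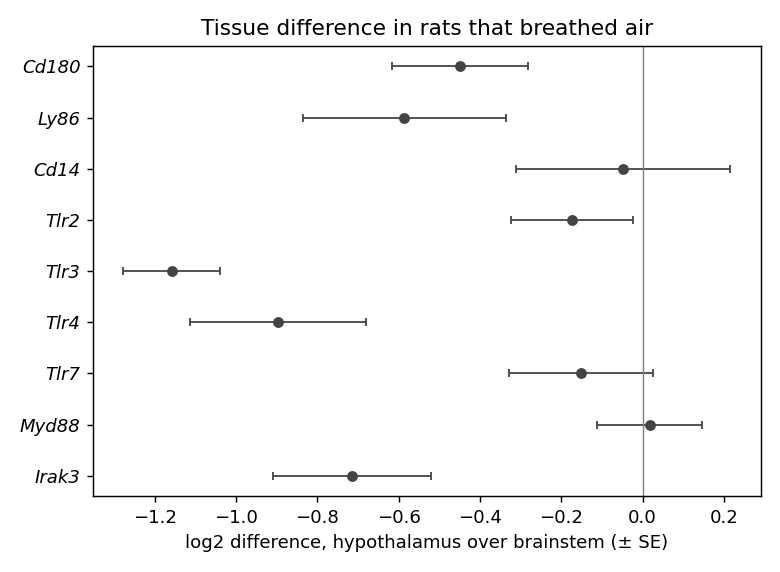
Difference between hypothalamus and brainstem in rats that breathed air, as log2(normalized count + 1) in hypothalamus minus brainstem with its SE (horizontal axis), for the 9 measured genes. Tlr3 lies farthest to the left at -1.16, and Tlr2, Tlr7, Cd14 and Myd88 lie between -0.17 and 0.02.

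Ly86 differed by -0.59 ± 0.25 between the tissues and missed limma's threshold (adjusted p = 0.0599), while it passed on the recovered reads in edgeR (0.0481) and DESeq2 (0.0377) and once the 4 liver-rich libraries were left out (0.0237). Tlr2, Tlr7, Cd14 and Myd88 gave -0.17, -0.15, -0.05 and 0.02, with limma adjusted p between 0.382 and 0.929. Among the microglia markers 3 of 20 were called lower in hypothalamus, including the integrin Itgam (-0.60), and 0 were called higher, with a median of -0.12. Of 11 endothelial markers, 10 were called lower there, with a median of -0.43. Of all genes 20.8% were called lower in hypothalamus. The part of cell numbers in the tissue differences was not tested.

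The wider Toll-like receptor pathway was read from 84 genes, of which 81 were in the table. In ADREX rats after ozone, and in ADREX against sham rats in air, 0 were called by limma of the 56 tested in hypothalamus and the 58 tested in brainstem. In sham rats after ozone 0 of 56 were called in hypothalamus and 1 of 58 in brainstem, against 1.59% and 0.979% of all genes. That gene was Irak2, an Irak family member of the Myd88 complex. It was higher by 0.80 ± 0.18 in brainstem and by 0.62 ± 0.17 in hypothalamus. In ozone, ADREX against sham gave 1 call, in brainstem, where 2.44% of all genes were called. This was Nfkbia, the inhibitor of NF-kB, at -1.30 ± 0.28, and Nfkbia stood at -0.84 ± 0.25 in hypothalamus. Both comparisons hold the sham ozone libraries through which the set was put forward, so these calls are a description.

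By role, 9 other receptors and their cofactors, 19 adaptors and kinases, 14 brakes, 12 transcription factors and 4 target cytokines could be tested in brainstem. Most of the cytokine genes on the list had a mean under 10 and were not tested. Between the tissues in air, 11 of 58 tested pathway genes were called, 6 higher and 5 lower in hypothalamus, against 42% of all genes. The deubiquitinase Cyld, a brake on NF-kB, was higher by 0.87 ± 0.12, the phosphatase Dusp1 by 0.57 ± 0.20, the kinase Tbk1 by 0.39 ± 0.10, Irak1 by 0.22 ± 0.07 and the kinase cofactor Tab2 by 0.20 ± 0.06. The receptor Tlr10 differed by -0.84 ± 0.18, Il1rl1, a receptor of the interleukin 1 family, by -0.58 ± 0.20 and the NF-kB subunit Rela by -0.28 ± 0.09. These 8 genes had the smallest p of the 11, with limma adjusted p from 3.04e-07 for Cyld to 0.0204 for Il1rl1.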

How the data were processed

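RNA was extracted from frozen tissue and made into mRNA libraries sequenced on a NextSeq instrument, per the labels' protocols. The values are a signal, namely the normalized counts per gene that the authors deposited. The submitters' processing notes list Partek, DESeq2 and the build rn6, with no role or version. The aligner, the annotation and any use of strand were not given in the sources used here. Genes that overlap others or have near-identical copies are therefore uncertain. Each deposited value was a whole multiple of 1 step per library, and division by it gave whole reads for 100% of values (tolerance 0.001).

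Log2(value + 1) was fitted with limma 3.58.1 in R 4.3.3 (trend on, Benjamini-Hochberg adjustment over all genes with a mean of 10 or more), on the 16 libraries of a tissue or, between tissues, all 32, and an adjusted p under 0.05 was a call. All 9 members in the table passed the filter in both tissues. Other settings tried were a pseudocount of 0.5 or 5, all genes kept, a minimum mean of 50, quantile and median-of-ratios scaling, edgeR 4.0.16 and DESeq2 1.42.0 on recovered reads, the compared groups alone, and leaving out libraries. Code was tested on simulated data.

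Named were all members, all called pathway genes up to 8 per comparison (beyond that the 8 with the smallest p), and the 8 genes nearest to Cd180 with symbols that are not provisional. Members and lists were chosen with earlier results of these data known.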

Additional observations from a re-analysis of the deposited data

Results flagged for a closer look

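The 9 members in the 8 groups gave 72 sets of 4 values, and 1 library stood apart from the other 3 in 9 of them. Chance gives about 1 in 20 per set, but the sets share libraries and are not independent. Cd14 was high in 3 hypothalamus libraries, at 34.4 in sham ozone 18 (others 21.3 to 22.97), 30.7 in sham air 2 (15.1 to 16.9) and 38.0 in ADREX air 68 (13.7 to 17.1), and these are the 3 hypothalamus libraries rich in liver transcripts. Tlr2 was high in sham ozone 18 in both tissues, at 92.3 in hypothalamus (43.7 to 46.9) and 91.4 in brainstem (46.9 to 54.3), again both rich in liver transcripts. The part of liver RNA in these values was not tested.

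Ly86 was at 32.5 in brainstem ADREX air 68 (others 19.3 to 20.7), Tlr4 at 72.0 in brainstem sham ozone 17 (54.3 to 55.9), Myd88 at 67.8 in hypothalamus ADREX air 67 (36.1 to 39.3) and Irak3 at 28.0 in brainstem sham air 3 (51.7 to 56.2). The difference between ADREX and sham rats in the ozone change of Cd180 in brainstem, 1.92, passed limma's threshold over all genes. That contrast holds the sham libraries through which Cd180 was put forward.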

How the results depend on the processing

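The 9 members in 11 comparisons were recomputed under each alternative. Of these gene values, 2657 kept their side of the threshold and their direction or, where no test is given, moved by less than the spread between libraries. Between the tissues 10 lost a call (8 Cd180, 1 Tlr4, 1 Irak3) and 9 gained one (Ly86), and 1 value without a test, for Tlr4, moved further. No called value changed sign. Counts of called members changed as follows. Ozone in sham brainstem gave 1 in place of 2 (Cd180) with no filter on low values, with edgeR and with the compared groups alone. Ozone in sham hypothalamus gave 0 in place of 1 with a mean of 50 or more, which leaves Cd180 out, and 2 once the 4 liver-rich libraries were left out. ADREX against sham in ozone gave 1 in place of 2 in brainstem with the compared groups alone, and 1 in hypothalamus with a mean of 50 or more (Tlr2). The difference in ozone change gave 0 in place of 1 in brainstem with no filter, and 1 in place of 0 in hypothalamus without the liver-rich libraries and with DESeq2. Hypothalamus against brainstem gave 2 in place of 4 in sham air alone and 2 in ADREX air alone. Leaving out 1 library gave 1 to 2 for ozone in either tissue of sham rats, 1 to 2 in brainstem and 2 in hypothalamus for ADREX against sham in ozone, 0 to 1 in brainstem and 0 to 2 in hypothalamus for the difference, 3 to 5 between tissues, and 0 elsewhere. Where no value shows it, the cause was not tested.

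Each number occurs once per tissue, and deviations of same-numbered libraries correlated at -0.531 to 0.612. The highest was that of number 18, which is rich in liver transcripts in both tissues. These correlations cannot decide whether 2 libraries came from 1 rat, because the tissues differ and deviations were centred within groups of 4. The labels do not say whether a shared number marks 1 rat, so the main fit did not pair libraries. With the replicate block, 4 members and 5715 genes were called between tissues, against 6109 without it. No paired analysis was possible within a tissue because its groups share no number. Depth limits Ly86 and Cd14, with 2 to 62 reads per library.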
